A study of Homo sapiens with 2 samples.

Results

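Galectins are soluble lectins that bind galactose-containing glycans, and the 6 galectin genes LGALS1, LGALS2, LGALS3, LGALS4, LGALS8 and LGALS9 were examined together with LGALS3BP, a secreted glycoprotein that galectins bind. All probe sets that the platform annotation assigned to exactly 1 of these symbols were taken, which gave 13 probe sets for 7 genes, out of 19775 genes that had at least 1 unshared probe set. The genes had been chosen with their values on these arrays known, so everything below is a description. RNA came from SW620, an established human colorectal cancer line derived from a lymph node metastasis, grown in RPMI-1640 medium. The mock knockdown culture, measured on what is called the mock array, carried a lentiviral short hairpin RNA without a target and the SOX2 knockdown culture, on what is called the knockdown array, a lentiviral short hairpin RNA against SOX2. Both groups therefore shared the line, the medium and lentiviral delivery, and each was 1 culture on 1 Affymetrix 3′ expression array. With 1 array per group no difference could be tested, and hairpin, culture and array cannot be told apart. A description field of both samples names the liver of a mouse knockout, which neither the line nor the source names match.

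Galectins are made in the cytosol and leave the cell without a signal peptide. Outside the cell they cross-link glycoproteins and glycolipids into lattices, and inside it some of them bind glycans exposed on damaged endosomes and lysosomes. Prototype galectins, among them those encoded by LGALS1 and LGALS2, have a single carbohydrate-binding domain and form dimers. The LGALS3 product joins such a domain to a flexible tail, and the products of LGALS4, LGALS8 and LGALS9 carry a pair of different domains on 1 chain. In the gut, LGALS4 is made by differentiated epithelium, where its product takes part in delivering glycoproteins to the apical membrane, while LGALS1 is mainly known from stromal and mesenchymal cells.

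Promoter sequences show how the gene with the largest difference and the members that interferon is known to induce are laid out around their starts. They are from RefSeq on GRCh38.p14 and run from 250 bases before to 50 after the annotated start, 5′ to 3′ on the strand of the gene. The table held windows for 6 of the 7 members, and LGALS1 had none. In the LGALS4 window, chr19:38812896-38813195 on the minus strand, capitals mark a match to the GATA motif GATAAG. In the windows of LGALS3BP, chr17:78979874-78980173 on the minus strand, and LGALS9, chr17:27630938-27631237 on the plus strand, capitals mark matches to GAAA, 2 bases of any kind and GAAA, the letters of an interferon-stimulated response element.
LGALS4: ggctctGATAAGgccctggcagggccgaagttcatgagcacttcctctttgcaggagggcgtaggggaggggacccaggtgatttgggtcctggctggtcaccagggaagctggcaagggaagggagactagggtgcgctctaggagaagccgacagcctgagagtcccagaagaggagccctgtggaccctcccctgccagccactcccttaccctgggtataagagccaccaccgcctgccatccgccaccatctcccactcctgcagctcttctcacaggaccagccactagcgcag
LGALS3BP: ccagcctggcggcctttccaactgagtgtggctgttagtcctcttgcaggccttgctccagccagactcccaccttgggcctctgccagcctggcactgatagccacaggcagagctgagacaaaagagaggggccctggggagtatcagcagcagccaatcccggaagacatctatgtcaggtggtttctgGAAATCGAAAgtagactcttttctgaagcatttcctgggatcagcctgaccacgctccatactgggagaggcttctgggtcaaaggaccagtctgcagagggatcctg
LGALS9: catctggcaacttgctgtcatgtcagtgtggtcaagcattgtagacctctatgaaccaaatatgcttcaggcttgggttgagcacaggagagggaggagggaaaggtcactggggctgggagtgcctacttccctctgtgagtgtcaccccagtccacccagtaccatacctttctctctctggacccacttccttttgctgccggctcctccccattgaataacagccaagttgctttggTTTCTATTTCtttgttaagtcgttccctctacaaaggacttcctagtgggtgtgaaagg

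The interferon element, searched like the other motifs on both strands, began 58 bases before the start of LGALS3BP and 9 bases before that of LGALS9, where it lies on the opposite strand. It was found in 3.57% of 35116 promoter windows of 300 bases, and in no other member's window. GATAAG was found in 6.36% of windows, and among the members in LGALS4 and in 1 of the 3 windows of LGALS8. The SOX core motif CATTGT occurred in 10.8% of windows and among the members in LGALS9 alone. The CDX motif TTTATG occurred in 10.6% of windows and among the members in 1 window of LGALS8. No match of one motif overlapped a match of another. A match is a stretch of letters and not a measured binding site.

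Each array gave values for 54613 probe sets other than array controls, with medians of 69.0 and 68.1 on the mock and the knockdown array. The deposited values are intensities that the submitters' notes credit to RMA. Their linear scale was read from the values, the step that returned them to it is not stated, and they carry no detection call. The median over both arrays, 68.5 or a log2 value of 6.10, served as a floor for dim values, which the brightest probe set of 13609 genes reached at least once. Differences are log2 values on the knockdown array minus those on the mock array, and differences from a value under the floor are given as bounds against it. The brightest SOX2 probe set stood at 2077 on the mock array and at 20.9, under the floor, on the knockdown array. Another, 213721_at, lay above the floor on both, at 333 and 120, a difference of -1.47, and the remaining SOX2 probe sets lay under it on both arrays, with differences of -0.06 and -0.42. Of 11 measured colorectal epithelial markers, 9 reached the floor on the mock array and all 11 on the knockdown array. EPCAM, a surface protein of epithelial cells, stood at 8910 and 9898, whereas KRT20, a keratin of differentiated gut epithelium, stood at 23.2 and 10763. VIL1, a microvillus protein of the same cells, stood at 2063 and 867. As deposited, 2 of the 11 were at least 2-fold higher, beside 8.44% of all genes, and 1, VIL1, at least 2-fold lower, beside 7.29%. The higher ones were KRT20 and CDH17, and CDH17 went from 35.5, under the floor, to 78.0, with a bound of only 0.19. Of 7 measured leukocyte markers, 5 lay under the floor on the mock array and 4 on the knockdown array, and PTPRC, CD3E, CD3D and FCER1G did so on both.

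Over the members, LGALS4 was far higher and LGALS1 far lower on the knockdown array, while the other members lay modestly above 0. At the brightest probe set, 1 of 7 genes was at least 2-fold higher, beside 8.44% of all genes, and 1 was at least 2-fold lower, beside 7.29% of all genes. In all 6 of 7 members lay above 0, against 48.9% of all genes, and their median difference was 0.56 against -0.01. All 7 genes and 12 of the 13 probe sets reached the floor. LGALS4 and the LGALS8 probe set 210731_s_at did so only through the knockdown array, where they were higher. These shares describe 7 genes picked with the values in view. The plot of both arrays by probe set shows every value.

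**Figure D1:**
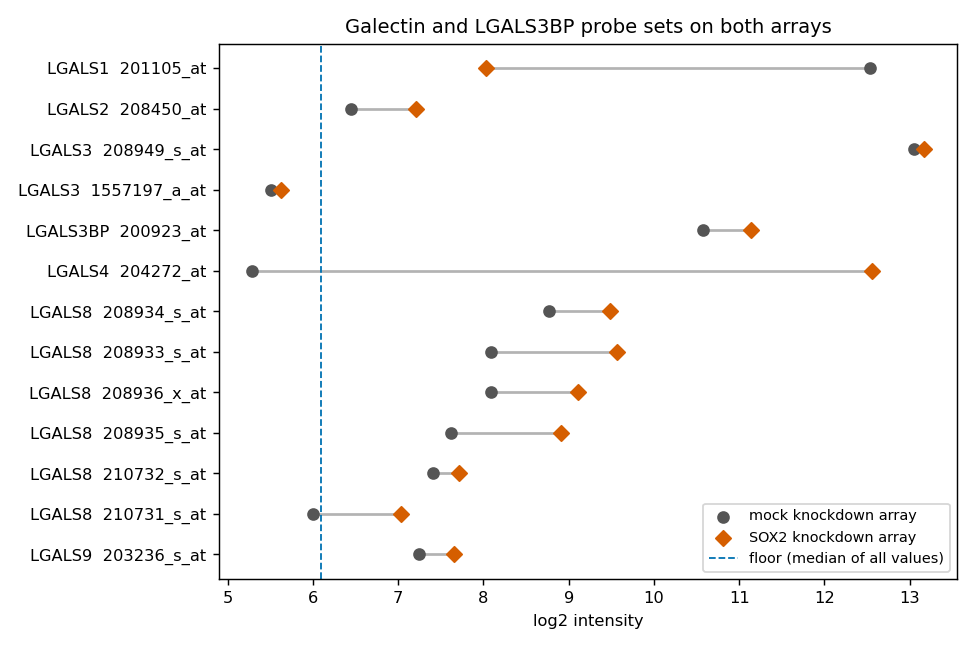
Log2 intensity of the 13 probe sets of galectin genes and LGALS3BP on the mock knockdown array (circles) and the SOX2 knockdown array (diamonds), with the floor of 6.10 as a dashed line. LGALS4 crosses from under the floor to 12.55, LGALS1 drops from 12.54 to 8.03, and the probe sets of LGALS8 all lie further right on the knockdown array.

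LGALS1 encodes the dimeric galectin of mesenchymal cells, known for binding laminin, integrins and T cell glycoproteins. Its only probe set, 201105_at, read 5943 in intensity on the mock array and 262 on the knockdown array. Both values lay above the floor, so the size was measured on both sides: LGALS1 was 22.7-fold lower, or -4.51 in log2 terms, and kept 4.40% of its mock value. Among 12412 genes that reached the floor on both arrays this ranked 3 from the lowest. Among all 13609 genes, with values under the floor raised to it, 20 genes were lower still. A difference as large in either direction was found in 0.860% of genes. On RNA from a whole culture, fewer cells making LGALS1 and less of its RNA per cell cannot be told apart.

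LGALS4 encodes the tandem-repeat galectin of the gut epithelium, known for binding sulfated glycolipids in apical membrane rafts. Its only probe set, 204272_at, stood at 39.1 on the mock array, under the floor, and at 6010 on the knockdown array. LGALS4 was the only member under the floor at its brightest probe set on the mock array. It was at least 87.7-fold higher, a log2 difference of at least 6.45, and with values under the floor raised to it only 3 of 13609 genes were higher still. The mock value gives only a bound, so the as-deposited difference of 7.26 depends on how RMA set dim values.

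LGALS8 encodes a tandem-repeat galectin that binds integrins at the surface and marks damaged vesicles inside the cell. It had 6 probe sets, all higher on the knockdown array, by 0.30 to 1.48 with a median of 1.03 and an SD between probe sets of 0.42. The brightest, 208934_s_at, went from 436 on the mock array to 715 on the knockdown array, a difference of 0.71, and was therefore not counted as 2-fold. The probe set 208933_s_at went from 272 to 757, a difference of 1.48, and 208935_s_at from 197 to 481, a difference of 1.29. The size of the LGALS8 difference thus depended on the probe set, while its direction did not.

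The remaining probe sets of LGALS8 spanned the 2-fold limit. 208936_x_at went from 271 to 553, a difference of 1.03. 210731_s_at went from 64.2, under the floor, to 131, a difference of at least 0.93. 210732_s_at went from 170 to 209, a difference of 0.30. As deposited, 4 of the 6 were at least 2-fold higher, and over the 12 member probe sets that reached the floor 5 were, beside 7.52% of all probe sets, while 1 was at least 2-fold lower, beside 6.60%. The 6 probe sets read transcripts of 1 gene from 1 pair of cultures and are no replicates. Of 6440 genes with several probe sets reaching the floor, 3.17% had, like LGALS8, a dimmer probe set at least 2-fold higher while the brightest differed by under 2-fold. All LGALS8 probe sets have names ending in _s_at or _x_at, which on this platform mark probes that can match several transcripts.

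**Figure D2:**
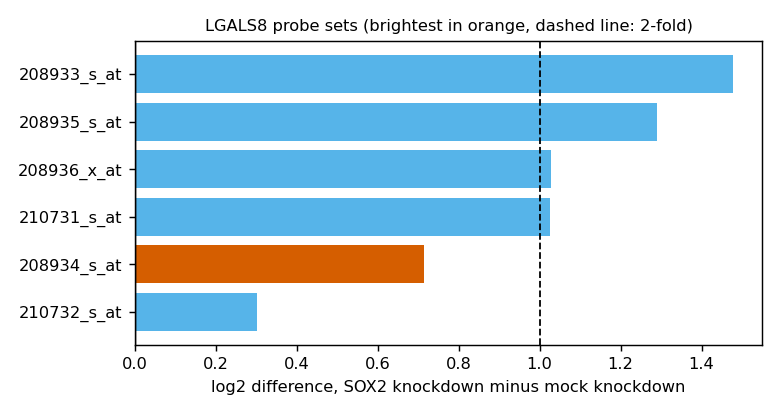
Log2 difference, knockdown minus mock array, of the 6 LGALS8 probe sets, with the brightest in orange and a dashed line at 2-fold. Bars run from 0.30 to 1.48, and the brightest probe set, at 0.71, lies short of the line.

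LGALS3, the galectin with a tail that forms oligomers on glycans, stood at much the same intensity on both arrays. Its brightest probe set, 208949_s_at, was at 8486 on the mock array and 9189 on the knockdown array, a difference of 0.11. A difference of this size or more was found in 75.6% of genes. The other probe set, 1557197_a_at, was under the floor on both arrays at 45.4 and 49.5. For comparison, the SD of differences between probe sets of the same gene was 0.49, so the difference of LGALS3 is within that spread.

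LGALS3BP, whose product binds galectins and matrix proteins outside the cell, went from 1525 to 2247 at its only probe set, 200923_at. The difference was 0.56, or 1.47-fold, and 31.2% of genes differed by as much. LGALS9, which encodes a tandem-repeat galectin that binds receptors on T cells, went from 152 to 201 at 203236_s_at. This difference of 0.41 was smaller than the SD between probe sets, which is no measure of variation between cultures. As large a difference was found in 41.0% of genes. LGALS9 has the near-identical copies LGALS9B and LGALS9C, so its probe set may also read their transcripts. LGALS2, a dimeric galectin of the gut epithelium, went from 87.3 to 147 at 208450_at, a difference of 0.76 from a value near the floor, and 22.5% of genes differed by as much. Of the 7 members 5 rested on 1 probe set, so that no second probe set of the gene was at hand for LGALS1, LGALS2, LGALS3BP, LGALS4 and LGALS9.

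LGALS3BP and LGALS9 are known to be induced by interferon, and interferon markers were higher on the knockdown array. Of 9 measured markers all lay above 0, against 48.9% of all genes, and 8 were at least 2-fold higher, beside 8.44%. Their median was 1.57 against -0.01 over all genes. BST2, which tethers budding viruses, went from 86.0 to 886, a difference of 3.36. IFIT1, a sensor of foreign RNA, went from 33.4 to 227, a difference of at least 1.73. The differences of LGALS3BP and LGALS9 were smaller than that of each of the 9 markers, the lowest of which was OAS1 at 0.84. The part of interferon signalling in the values of LGALS3BP and LGALS9 was not tested.

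Most other galectin genes that had a probe set of their own lay under the floor. Of 11 on the list, 5 had a probe set of their own and only LGALSL, a galectin-related gene, reached the floor. It went from 173 to 193, a difference of 0.16, and its other probe set differed by 0.47. LGALS12, LGALS13, LGALS14 and CLC stayed under the floor on both arrays.

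Enzymes that build the glycans galectins bind were described from lists of their own, whose counts at 2-fold stand beside the 8.44% of all genes higher and 7.29% lower, and several of these counts rest on 1 gene. Among 9 N-glycan branching enzymes that reached the floor, 2 were at least 2-fold higher and none was lower by as much, for a median of 0.59. MGAT4B, which adds a branch to N-glycans, went from 1954 to 5275, a difference of 1.43, and 1.56 at its other probe set. MGAT4A, its relative, went from 40.9 to 84.4, counted as 2-fold as deposited but with a bound of only 0.30 against the floor. MGAT5, which makes the branch that galectins are best known to favour, went from 2332 to 1690, a difference of -0.46, and is named outside the rule for examples. Among 11 glycosyltransferases listed for N-acetyllactosamine chains, 2 were at least 2-fold higher and none was lower by as much, for a median of 0.24. Not all of them make N-acetyllactosamine: B4GALT6 is known for adding galactose to a glycolipid. The galactosyltransferases B4GALT6 and B4GALT1 differed by 1.69 and 1.05, but other probe sets by as little as 0.39 and 0.08.

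The lists of O-glycan core enzymes and sialyltransferases also held enzymes with large differences. Among 5 O-glycan core enzymes, 1 was at least 2-fold higher, none was lower, and the median was 0.12. GCNT3, which starts the core branches of mucin glycans, went from 76.2 to 4521 and was 59.3-fold higher, a size that rests on a mock value near the floor. Among 7 sialyltransferases, which cap galactose, 3 were at least 2-fold higher and 1 lower, the median being 0.27. ST3GAL1 went from 109 to 2007, a difference of 4.21, with its other probe sets that reached the floor at 3.90 and 5.30. ST3GAL4 went from 214 to 694, a difference of 1.70. ST6GAL1, whose linkage is known to block binding of LGALS1 protein, went the other way, from 717 to 223, a difference of -1.68.

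Sulfatides are lipid ligands of LGALS4 protein, which is known to carry apical glycoproteins. Among 5 genes of sulfatide synthesis, 1 was at least 2-fold higher and none was lower by as much, for a median of 0.44. UGT8 went from 14.9 to 892 and was at least 13.0-fold higher, with its other probe set at 3.35 as deposited. It makes the galactolipid that is sulfated to sulfatide. GAL3ST1, the sulfotransferase of this step, went from 118 to 143, a difference of 0.27, and is named outside the rule. CERS2, a ceramide synthase, differed by 0.78. Among 6 apical proteins, 2 were at least 2-fold higher, beside 8.44% of all genes, and none was lower by as much, beside 7.29%. Their median was 0.01. MAL2, a membrane protein of apical transport, went from 14.4 to 8474 and was at least 124-fold higher. The peptidase DPP4 went from 59.7 to 364 and was at least 5.31-fold higher, and MUC1, an apical mucin, went from 269 to 176, a difference of -0.61.

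Glycoproteins known as galectin ligands at the surface or in the matrix were found on both sides of the limit. Of 22 that reached the floor, 4 were at least 2-fold higher and 2 lower, beside 8.44% and 7.29% of all genes, the median being 0.32. The hyaluronan receptor CD44 went from 204 to 2966, a difference of 3.86, with other probe sets from 0.13 to 3.24. CEACAM1, an adhesion molecule, went from 225 to 1510, a difference of 2.75, with other probe sets from 0.35 to 1.46. BSG, a matrix metalloproteinase inducer, went from 1022 to 465, a difference of -1.14. The fibronectin receptor subunit ITGA5 went from 224 to 107, a difference of -1.06.

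Inside the cell, 6 partners of galectins reached the floor. Of these, 1 was at least 2-fold higher, beside 8.44% of all genes, and none was lower by as much, beside 7.29%. Their median was -0.05. TRIM16, a ligase that works with LGALS3 protein at damaged lysosomes, went from 166 to 673, a difference of 2.02. HRAS, a small GTPase that LGALS1 protein is known to hold at the membrane, went from 898 to 1666, a difference of 0.89. Of 5 galectin receptors of leukocytes that reached the floor none was 2-fold higher or lower, beside the same shares, and their median was -0.07.

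**Figure D3:**
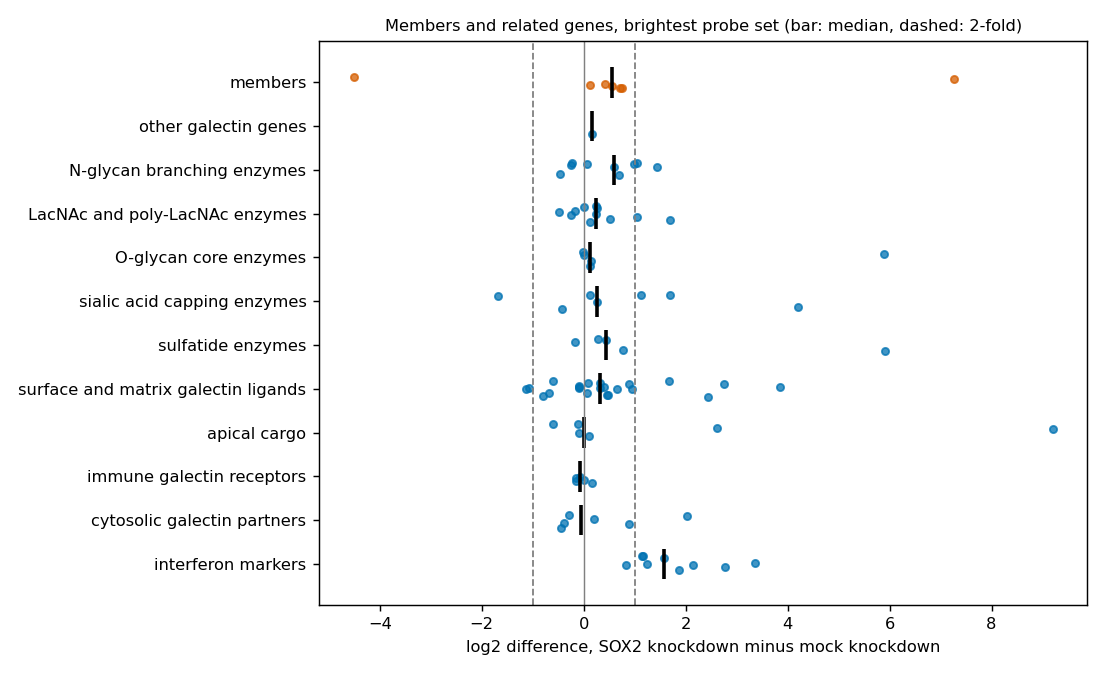
Log2 difference, knockdown minus mock array, of each gene that reached the floor, by list, at its brightest probe set, as deposited (points, spread vertically at random; black bars are medians, dashed lines 2-fold). The members (orange) run from -4.51 for LGALS1 to 7.26 for LGALS4 with a median of 0.56, and the interferon markers, with a median of 1.57, have the highest median of the lists drawn.

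Markers of other cell types were set beside the members that differed most. Summed over 7 leukocyte markers the intensity was 555 on the mock array and 12134 on the knockdown array. Nearly all of that gap was LYZ, a lysozyme that leukocytes and some gut epithelium make, at 213 and 11691. With LYZ set aside, a choice made with the values in view, the sums were 342 and 443, and CD14 rose most among the rest. Of these markers LYZ and CD14 were at least 2-fold higher, beside 8.44% of all genes. CD14 went from 43.6, under the floor, to 156, a difference of at least 1.19. Summed over 8 fibroblast and endothelial markers, the intensity was 773 on the mock array, where LGALS1 was high, and 650 on the knockdown array. Of those 8, 3 lay under the floor on the mock array and 4 on the knockdown array. As deposited, 1 was at least 2-fold lower, beside 7.29% of all genes. It was LUM, at 71.7 and 17.8, with a bound of -0.07. No marker can be read as 0 on these arrays, and the part of other cell types in the differences of LGALS1 and LGALS4 was not tested.

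By rule, the 3 genes closest to LGALS4 and to LGALS1 were named from the distance between log2 values on the 2 arrays, with values under the floor raised to it. Closest to LGALS4 were GCNT3 at a distance of 0.44, TM4SF4 at 0.46 and MAL2 at 0.50. TM4SF4, a tetraspan membrane protein, went from 26.8, under the floor, to 8274 and was at least 121-fold higher. Closest to LGALS1 were PLIN2, a coat protein of lipid droplets, at 0.17, BIK, a pro-apoptotic BCL2 family protein, at 0.46 and DDIT4, an inhibitor of mTORC1, at 0.79. PLIN2 went from 5544 to 288, but its other probe set differed by -0.06. A likeness over 2 arrays rests on a single pair of values per gene.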

How the data were processed

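Total RNA (250 ng per sample) was extracted with Trizol and labelled with biotin for 3′ expression arrays, per the labels' protocols. The authors deposited 1 intensity for each probe set on each array, and the submitters' processing notes name RMA. The version and settings of RMA were not given in the sources used here. This method equalizes the distributions of arrays, which hides any shift in total RNA. The deposited intensity was turned into log2 values without a pseudocount. Precision is limited by having 1 array in each group.

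Of 54675 probe sets, 62 were array controls. The platform annotation gave 1 symbol to 41091 others, several to 1801 and none to 11721. Entrez identifiers of 41037 were found in a RefSeq table of GRCh38.p14, which changed 0 symbols. A gene was read at its probe set with the highest mean log2 value, and entered when its higher value reached the floor. A difference with 1 value under the floor is a bound taken against the floor, while counts and medians use values as deposited. The limit was 2-fold. The SD between probe sets was pooled over genes with several probe sets reaching the floor.

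The members, lists, motifs and limits were chosen with earlier results of these data known. Examples were named by rule: all members, SOX2, up to 2 genes per list and direction with at least 1.5-fold difference and no probe set against, and the 3 genes nearest to each member at least 2-fold apart. Of genes named outside it, MGAT5 and GAL3ST1 are marked, and others serve as cell type checks. OAS1, the other galectin genes and the neighbours along the chromosome were also named outside the rule. Alternatives covered normalization, a pseudocount of 32, floors, limits and the choice of probe set. Counting was tested on simulated data with planted changes. Python 3.11.15, numpy 2.4.6, pandas 2.3.3, statsmodels 0.14.6 and matplotlib 3.10.9 were used.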

Additional observations from a re-analysis of the deposited data

How the results depend on the processing

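Under median centring, intensity-dependent centring, quantile normalization, a pseudocount of 32 and values raised to the floor, the difference of LGALS1 ran from -4.51 to -4.35 and that of LGALS3BP from 0.55 to 0.59. The difference of LGALS4 was 6.41 with a pseudocount of 32 and 6.45 with values raised to the floor. The brightest LGALS8 probe set ran from 0.68 to 0.73 and LGALS2 from 0.59 to 0.78. The count of 1 member gene at least 2-fold higher became 0 with the floor required of both arrays, which leaves LGALS4 out, and 3 with a limit of 1.5-fold. The count of 5 member probe sets at least 2-fold higher was 3 with a pseudocount of 32, 3 with the floor required of both arrays and 1 with a limit of 3-fold. The median of the apical cargo list became 2.61 once the floor was raised to the 75th percentile, which leaves fewer genes. Among list counts at 2-fold, the higher N-glycan enzymes went from 2 to 1 with a pseudocount of 32, with values raised to the floor, with the floor at the 75th percentile and with the floor required of both arrays. The higher genes of the N-acetyllactosamine list went from 2 to 1 with the pseudocount and with the mean over probe sets. The lower surface ligands went from 2 to 1 with the pseudocount. With the floor required of both arrays, the higher sulfatide genes went from 1 to 0 and the higher apical genes from 2 to 0. No paired analysis was possible because each group holds 1 array, and no array could be left out for the same reason.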

Other observations

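Neighbours along the chromosome, 5 measured protein-coding genes on either side in RefSeq order, were read for each member; this was chosen after the data were seen. LGALS1 and LGALS2 lie near each other on chromosome 22 with 3 protein-coding genes between them, and differed in opposite directions, by -4.51 and 0.76. At the brightest probe set, none of the 10 neighbours of LGALS1, LGALS2 among them, was at least 2-fold higher or lower. The shares over all genes were 8.44% and 7.29%. These neighbours ran from -0.76 to 0.76, but the 5 probe sets of 1 of them, TRIOBP, ran from -0.45 to 1.07 as deposited. Among the 10 neighbours of LGALS2, beside LGALS1, MFNG, a glycosyltransferase that modifies Notch, went from 1301 to 38.4 and was at least 19.0-fold lower. As deposited, its 3 probe sets ran from -5.08 to 0.10.

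Around LGALS4 on chromosome 19 the 10 neighbours had a median difference of 0.46, from -0.18 to 1.14, against -0.01 over all genes. Of these neighbours 1 was at least 2-fold higher, beside 8.44% of all genes, and none was lower by as much, beside 7.29%. The highest of them were the following. The calpain CAPN12 went from 115 to 253, a difference of 1.14. The actin-binding ACTN4 went from 654 to 1298, a difference of 0.99, and the RNA-binding HNRNPL from 1691 to 3254, a difference of 0.94. Near LGALS8 on chromosome 1, GNG4, a G protein subunit, was at least 17.2-fold lower, with its 4 probe sets from -4.96 to -0.54 as deposited. At the brightest probe set, 2 of the 10 neighbours of LGALS8 were at least 2-fold lower as deposited, beside 7.29% of all genes. Another 2 were at least 2-fold higher, beside 8.44%. The higher ones were GPR137B, a lysosomal membrane protein, at 1.18, and the muscarinic receptor CHRM3, at 1.36. As deposited, the 6 probe sets of CHRM3 ran from 0.14 to 2.10. NID1, counted in neither direction at -0.09, had 3 probe sets from -4.69 to -0.09 as deposited. The median over the 10 neighbours of LGALS8 was -0.12. Those of LGALS3, LGALS3BP and LGALS9 had medians of -0.34, -0.16 and 0.15. Of 10 neighbours each, 0, 1 and 0 were at least 2-fold higher, and 1, 1 and 0 at least 2-fold lower, beside the same shares.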
